A study of Mus musculus with 4 samples.

Results

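The 10 genes described here, which are widely used as markers of alternative macrophage activation, were followed across 4 arrays of bone marrow-derived dendritic cells (BMDC), 1 array for each of 4 culture conditions. The genes were taken by symbol from the annotation of the array: F13a1, Tgm2, Chil3, Retnla, Mrc1, Clec10a, Mgl2, Il4ra, Cd163 and Msr1. They are 10 of the 18193 genes measured. The rule takes them by symbol and not by signal, but the list was chosen with earlier results of these data known. Together they had 20 probe sets of their own and 1 probe set that Chil3 shares with Chil4. The cells came from male C57BL/6 mice of 6 to 8 weeks. Bone marrow from all groups was grown for 7 days with 500 U/ml GM-CSF, a growth factor for myeloid cells under which marrow gives rise to dendritic cells and macrophages, and all samples were sorted on the costimulatory surface protein CD80 before RNA was extracted. Control BMDC were not treated with 1D8 cells. For the live coculture, BMDC were grown with 1D8 cells, an established mouse ovarian surface epithelial line that the labels call tumour cells, at 1 tumour cell to 5 BMDC. In the irradiated coculture 50 Gy had been given to the 1D8 cells beforehand. Conditioned medium stands for BMDC that saw no tumour cells but 1D8 supernatant, at 25% (v/v). An array of pure 1D8 cells was not analysed here.

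Macrophages exposed to interleukin 4 (IL-4) or IL-13 take up a state called alternative activation, which is known from parasite infection, tissue repair and tumours. Both cytokines signal through the receptor chain encoded by Il4ra to the transcription factor STAT6, and STAT6 with partners such as PPARγ, KLF4 and IRF4 induces secreted proteins, lectins and enzymes. Several of the markers also respond to other signals, among them GM-CSF, IL-10, glucocorticoids and retinoids, and many are expressed by monocyte-derived dendritic cells at rest.

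With 1 array per condition no error could be computed between cultures, no test could be run, and the words higher and lower describe these 4 arrays. All values are MAS5 signals, a linear brightness per probe set scaled to a common level on each array. Signals under 44.3, the median of all signals, were raised to this floor before ratios were taken, each gene was read at its brightest probe set, and a 2-fold difference was counted. The one measure of error in the data is the disagreement between probe sets of the same gene. From pairs of probe sets this spread (SD) of a log2 ratio was 0.41 for live coculture, 0.38 for irradiated coculture and 0.36 for conditioned medium against control, and 0.20 to 0.22 between the treated arrays. It covers the probes and not the spread between cultures. Over the 4 arrays 58.8% to 62.6% of genes exceeded the floor.

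The markers differed from one another. F13a1 was higher on each of the 3 treated arrays, Tgm2 was higher in both cocultures but not in conditioned medium, and Il4ra and Msr1 lay near the 2-fold threshold. The lectin genes Mrc1, Clec10a and Mgl2 and the secreted lectin gene Chil3 stayed within 2-fold of the control on every treated array. Retnla and Cd163 were at or under the floor on all 4 arrays.

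In the live coculture 3 of the 10 markers (F13a1, Tgm2 and Msr1) were at least 2-fold higher than in the control, where 3.39% of all genes were, and none was lower, against 2.24% of all genes. In the irradiated coculture 3 of 10 (F13a1, Tgm2 and Il4ra) were higher, against 3.52% of all genes, and none was lower, against 2.26%. In conditioned medium 1 of 10, F13a1, was higher, against 2.31%, and none was lower, against 1.42%. Among the 9835 genes above the floor on all 4 arrays, which include 8 of the markers, 4.77% were higher and 3.34% lower with live 1D8 cells, 4.84% and 3.37% with irradiated cells, and 3.51% and 2.01% with conditioned medium. The median log2 ratio of the 10 markers was 0.31, 0.50 and 0.32 in the same order, and that of all genes was 0.00 in each case. The 3 comparisons share the control array and are not independent of each other. Because the markers were chosen with earlier results of these data known, the shares of all genes are given for description only.

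**Figure D1:**
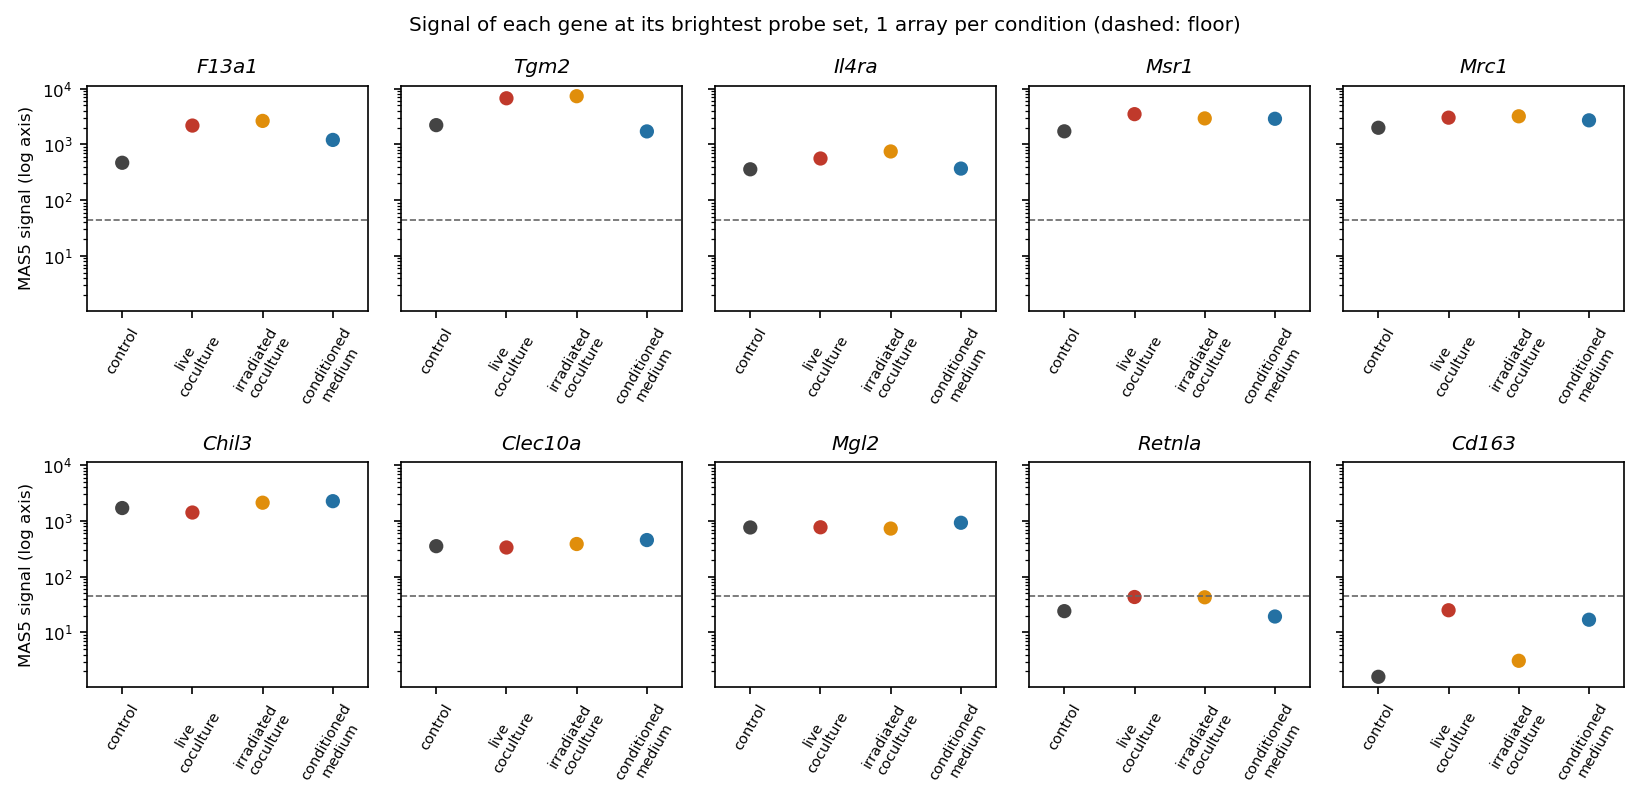
MAS5 signal (log axis) of the 10 marker genes at their brightest probe sets, with 1 point per array and the floor of 44.3 as a dashed line. F13a1 runs from 468.8 in the control to 2642 in the irradiated coculture, Tgm2 is high in both cocultures, and Retnla and Cd163 stay under the floor.

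**Figure D2:**
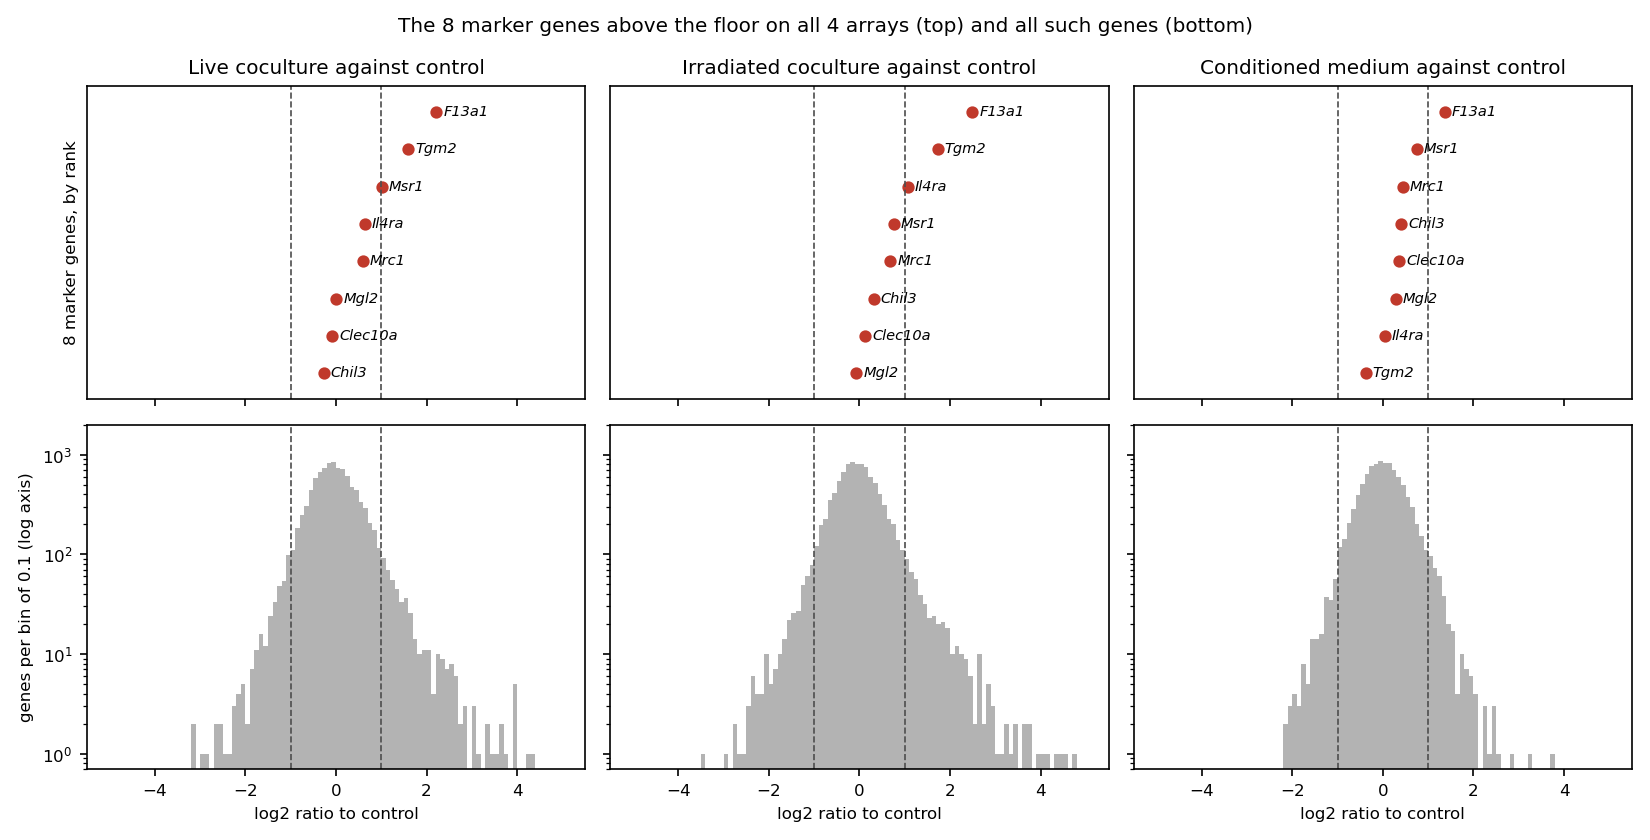
Log2 ratio to control of the 8 marker genes above the floor on all 4 arrays (top, in order of their ratio) and the number of genes per bin of 0.1 among all 9835 such genes (bottom, log axis), with the 2-fold thresholds dashed. F13a1 has the highest ratio of the 8 in each of the 3 panels, while Tgm2 is second in both cocultures and last in conditioned medium.

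The start of F13a1, the marker with the highest ratios, and that of Il4ra, the receptor, are shown beside those of Chil3 and Retnla, classic IL-4 target genes. Chil3 was not 2-fold apart from the control, and Retnla was under the floor on all 4 arrays and gave no ratio. RefSeq promoter windows (GRCm38.p6), each from 250 bases before to 50 bases after an annotated start site, were matched for 7 of the 10 genes, and F13a1 has 2 of them. Capitals mark 2 STAT motifs, TTCNNNGAA and the same with 4 bases between TTC and GAA (the spacing preferred by STAT6), and the PU.1 core motif GAGGAA, each searched on both strands. The windows are F13a1 at chr13:37050195-37050494 (minus strand) and chr13:37049164-37049463 (minus strand), Il4ra at chr7:125552021-125552320 (plus strand), Chil3 at chr3:106167515-106167814 (minus strand) and Retnla at chr16:48842359-48842658 (plus strand).
F13a1 upstream start: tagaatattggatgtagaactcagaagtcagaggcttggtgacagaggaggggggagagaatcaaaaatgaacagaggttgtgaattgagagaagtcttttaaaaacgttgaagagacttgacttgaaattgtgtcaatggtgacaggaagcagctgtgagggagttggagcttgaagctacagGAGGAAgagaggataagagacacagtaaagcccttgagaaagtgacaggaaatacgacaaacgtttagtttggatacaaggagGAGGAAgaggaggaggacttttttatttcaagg
F13a1 downstream start: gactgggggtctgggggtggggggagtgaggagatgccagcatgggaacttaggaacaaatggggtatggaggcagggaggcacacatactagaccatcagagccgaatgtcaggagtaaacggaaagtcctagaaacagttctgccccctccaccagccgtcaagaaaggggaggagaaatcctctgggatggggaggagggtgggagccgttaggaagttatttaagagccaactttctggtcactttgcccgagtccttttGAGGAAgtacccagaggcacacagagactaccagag
Il4ra: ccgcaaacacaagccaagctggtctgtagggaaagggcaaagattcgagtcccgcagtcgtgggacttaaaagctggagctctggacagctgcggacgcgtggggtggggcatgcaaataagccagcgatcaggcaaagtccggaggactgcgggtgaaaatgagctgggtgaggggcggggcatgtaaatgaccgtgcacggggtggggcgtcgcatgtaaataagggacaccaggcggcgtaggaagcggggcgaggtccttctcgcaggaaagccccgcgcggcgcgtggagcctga
Chil3: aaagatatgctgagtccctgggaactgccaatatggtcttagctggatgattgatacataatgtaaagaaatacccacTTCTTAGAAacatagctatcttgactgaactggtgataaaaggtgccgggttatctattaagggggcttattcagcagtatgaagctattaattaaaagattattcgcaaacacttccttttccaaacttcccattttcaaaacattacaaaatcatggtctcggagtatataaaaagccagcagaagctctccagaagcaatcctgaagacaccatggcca
Retnla: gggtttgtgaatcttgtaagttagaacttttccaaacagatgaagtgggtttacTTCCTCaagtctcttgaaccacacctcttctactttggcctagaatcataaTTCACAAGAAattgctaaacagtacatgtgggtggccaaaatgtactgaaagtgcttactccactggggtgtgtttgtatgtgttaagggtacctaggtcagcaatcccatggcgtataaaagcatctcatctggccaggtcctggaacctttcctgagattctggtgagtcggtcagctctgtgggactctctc
The STAT6 motif occurs once in the Retnla window, as TTCACAAGAA at position -145 from the start, and in 6.95% of all 32851 windows. The shorter STAT motif occurs once in the Chil3 window, as TTCTTAGAA at position -172, and in 8.30% of all windows. Neither is found in the windows of F13a1 and Il4ra. GAGGAA occurs 2 times in the upstream and 1 time in the downstream window of F13a1, and in 28.3% of all windows. The Retnla window holds it 1 time, on the other strand (TTCCTC). The windows of Mrc1 and Mgl2 hold 3 and 1 such hexamers and no STAT motif. Of 2 further motifs searched, AP-1 (TGANTCA, in 7.81% of all windows) was found in no window of a marker, and the hypoxia response core (ACGTG, in 19.6%) once, in that of Cd163. A match is a stretch of letters and not a bound site.

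F13a1 encodes the catalytic A subunit of coagulation factor XIII, a transglutaminase that crosslinks fibrin and is made by monocytes and macrophages. Its single probe set gave a signal of 468.8 on the control array, 2180 with live 1D8 cells, 2642 with irradiated 1D8 cells and 1205 in conditioned medium. The control was the lowest array, conditioned medium lay between, and the cocultures were highest. Over the control these are ratios of 4.65-fold (log2 ratio 2.22), 5.64-fold (2.49) and 2.57-fold (1.36). Few of the 18193 genes had a higher ratio: 87 with live 1D8 cells, 60 with irradiated cells and 117 in conditioned medium. F13a1 was also 2.19-fold higher in the irradiated coculture than in conditioned medium. The difference between the cocultures (1.21-fold, log2 ratio -0.28 for live over irradiated) was within 2 SD of the probe set spread.

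Tgm2 encodes tissue transglutaminase, an enzyme of the same family as F13a1 that crosslinks proteins inside and outside the cell; it is induced by IL-4 in macrophages and is also made by epithelial and mesenchymal cells. At its brightest probe set, 1437277_x_at, the control array read 2219, the live coculture 6728, the irradiated coculture 7329 and conditioned medium 1712. Both cocultures stood above both arrays without tumour cells. The live coculture was 3.03-fold and the irradiated coculture 3.30-fold higher than the control, and conditioned medium was 1.30-fold lower.

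The size of the Tgm2 difference depended on the probe set, although all 6 were at least 2-fold higher in both cocultures. Probe set 1417500_a_at read 1071 (control), 8632 (live), 9900 (irradiated) and 1184 (conditioned medium), so that it was 8.06-fold and 9.24-fold higher in the cocultures. Probe set 1426004_a_at had signals of 471.5, 5376, 5939 and 565.4 and was 11.4-fold and 12.6-fold higher. These 2 carry the suffix that Affymetrix gives to sets matching several transcripts of 1 gene, whereas the suffix _x_at of the other 4 marks probes that may also bind other sequences. Of these, 1433428_x_at and 1455900_x_at were 3.04-fold and 4.55-fold higher in the live coculture. Probe set 1438942_x_at read 5.3 for the control and 15.4 for conditioned medium, both under the floor, against 163.3 and 142.4 in the cocultures, at least 3.69-fold and 3.21-fold higher. As the mean over its probe sets the log2 ratio of Tgm2 was 2.30 in the live and 2.43 in the irradiated coculture. In conditioned medium the 5 probe sets that exceeded the floor on each array had log2 ratios between -0.37 and 0.26 and differed in sign, so no direction is given there.

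Tgm2 was the one marker at least 2-fold higher in the live coculture than in conditioned medium (3.93-fold, with 60 of 18193 genes at a higher ratio), where 1.78% of all genes were higher and 1.14% lower. Against the same array 3 of 10 markers, F13a1, Il4ra and Tgm2, were higher in the irradiated coculture, where 1.99% of all genes were higher and 1.24% lower. Tgm2 was 4.28-fold higher in that comparison. As the mean over probe sets the log2 ratio of Il4ra there was 0.50 in place of 1.02, which ends its call. None of the 10 markers was 2-fold apart between the live and the irradiated coculture, where 0.374% of all genes were higher and 0.302% lower.

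On the arrays where Tgm2 was high, several markers of epithelial and mesothelial cells were high as well. Of 17 measured epithelial and mesothelial genes, 7 were at least 2-fold higher with live 1D8 cells, 7 with irradiated cells and none with conditioned medium, with none lower. Summed, their signals came to 608.8 on the control array, 3191 and 3826 in the live and irradiated cocultures and 946.6 in conditioned medium, that is 5.24, 6.28 and 1.55 times the control. Krt18, a keratin, read 9.9, 269.0, 304.8 and 58.3 over the 4 arrays in that order, and Wt1, a transcription factor of mesothelium, had 5.3, 174.3, 218.6 and 17.0. Other genes of the list did not share this pattern. In the same order Epcam read 103.8, 107.2, 239.0 and 168.5, Pkp3 65.8, 44.9, 59.0 and 86.7, and Cldn4 18.3, 16.4, 65.6 and 72.6. Krt7, Dsp and Lrrn4 were at or under the floor on all 4 arrays. With the floor at the 75th percentile 3 epithelial genes were called in the live coculture. Of 15 fibroblast and matrix genes 3 were higher in each coculture. All samples had been sorted on CD80, and the part of 1D8 cells in the Tgm2 signal was not tested.

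**Figure D3:**
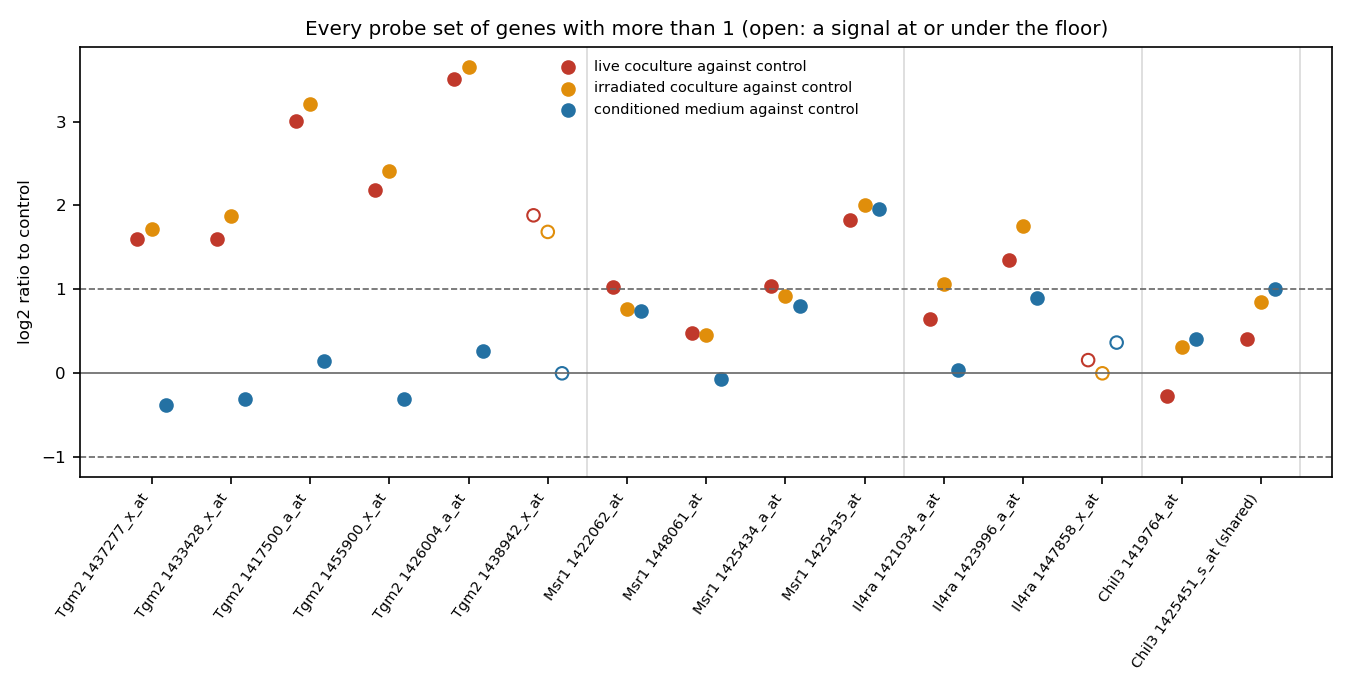
Log2 ratio to control of every probe set of Tgm2, Msr1, Il4ra and Chil3, coloured by treated array, with open circles where a signal was at or under the floor and the 2-fold thresholds dashed. All 6 probe sets of Tgm2 lie above the threshold in both cocultures and between -0.37 and 0.26 in conditioned medium, while 1 of the 4 probe sets of Msr1 passes it on all 3 treated arrays.

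Il4ra encodes the receptor chain shared by IL-4 and IL-13. Its brightest probe set, 1421034_a_at, read 358.1 on the control array, 559.1 with live 1D8 cells, 748.1 with irradiated 1D8 cells and 368.7 in conditioned medium. The irradiated coculture was highest, the live coculture second, and control and conditioned medium lay together. The ratios to control were 1.56-fold, 2.09-fold and 1.03-fold. The second probe set, 1423996_a_at, had signals of 193.8, 494.1, 655.8 and 361.5 in the same array order and gave larger ratios, 2.55-fold, 3.38-fold and 1.87-fold. The third, 1447858_x_at, lay between 30.2 and 57.1. The 2-fold call in the irradiated coculture (log2 ratio 1.06) was lost when the arrays were centred on their medians (0.99) or when the 3 probe sets were averaged (0.94).

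Msr1 encodes the class A scavenger receptor, through which macrophages take up modified lipoproteins and bacterial products. Its brightest probe set, 1422062_at, gave 1719 for the control, 3493 for the live coculture, 2930 for the irradiated coculture and 2884 for conditioned medium. All 3 treated arrays were above the control, by 2.03-fold, 1.70-fold and 1.68-fold. Probe set 1425434_a_at gave similar ratios of 2.06-fold, 1.89-fold and 1.75-fold. The dimmest, 1425435_at, had 82.7 for the control against 294.5, 331.6 and 322.4, with log2 ratios of 1.83, 2.00 and 1.96. The fourth, 1448061_at, had log2 ratios of 0.48 and 0.46 in the cocultures and -0.06 in conditioned medium, so the 4 probe sets disagree there. After median centring the live coculture was under 2-fold at the brightest probe set (log2 ratio 0.90). As the mean over probe sets the irradiated coculture passed 2-fold (1.04 in place of 0.77), so that under this setting Msr1 takes the place of Il4ra among the 3 markers called there.

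The other scavenger receptor among the markers is Cd163, the haemoglobin-haptoglobin receptor of resident macrophages, which is induced by IL-10 and glucocorticoids. It read 1.6 on the control array, 25.0 with live and 3.1 with irradiated 1D8 cells, and 16.9 in conditioned medium. All are under the floor and have no order. Of 18 measured scavenger receptor genes outside the marker list, 1 was higher and 1 lower in each coculture, and 2 were higher and none lower in conditioned medium. Olr1, a receptor for oxidised lipoprotein, read 55.1 on the control array and 225.0, 192.7 and 130.0 on the treated arrays, log2 ratios of 2.03, 1.81 and 1.24. Cd5l, a secreted scavenger protein of macrophages, was 3.30-fold and 4.78-fold lower in the live and irradiated cocultures and 2.24-fold higher in conditioned medium, with 247.2 for the control and 553.4 for conditioned medium. With the floor at the 75th percentile none of these calls for Olr1 remained, nor did those for Cd5l in the cocultures (log2 ratio -0.67 in both).

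Mrc1 encodes the macrophage mannose receptor, the most used surface marker of alternative activation. Its single probe set read 1991 for the control, 3021 for live coculture, 3196 for irradiated coculture and 2707 for conditioned medium. The control was lowest, and the ratios of 1.52-fold, 1.61-fold and 1.36-fold did not reach 2-fold or 2 SD of the probe set spread.

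Clec10a and Mgl2 encode the galactose-type lectins MGL1 and MGL2, close relatives that bind galactose and N-acetylgalactosamine and are found on dendritic cells and macrophages. Clec10a read 352.6 for the control, 333.8 for live coculture, 385.5 for irradiated coculture and 453.9 for conditioned medium. For Mgl2 the 4 arrays read 763.2, 769.4, 729.6 and 927.0. Both were highest in conditioned medium, by 1.29-fold and 1.21-fold over the control, and no neighbouring arrays in the order of either gene differed by more than 2 SD of the probe set spread. The lowest and highest arrays of Clec10a, live coculture and conditioned medium, had a log2 ratio of -0.44, a size of 2.01 SD.

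The other lectin genes of these families showed some lower signals. Of 22 measured genes of the mannose receptor family and of galactose or mannose lectins, none was higher on any treated array, 2 were lower with live 1D8 cells, 3 with irradiated cells and 1 with conditioned medium. Clec4a3, an inhibitory lectin receptor of dendritic cells, read 1426 on the control array against 306.5 and 333.4 in the cocultures, 4.65-fold and 4.28-fold lower. Ly75, the DEC-205 receptor that takes antigen into dendritic cells, read 126.6 on the control array and 31.2 with live 1D8 cells, under the floor and at least 2.86-fold lower. Clec4b1 was at least 3.34-fold lower in the irradiated coculture. With the floor at the 75th percentile the calls for Ly75 and Clec4b1 were lost, their log2 ratios being 0.00.

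Chil3 encodes Ym1, a secreted chitinase-like lectin of alternatively activated macrophages that is also abundant in neutrophil precursors. The probe set of its own, 1419764_at, read 1704 for the control, 1415 for live coculture, 2123 for irradiated coculture and 2261 for conditioned medium. The live coculture was lowest and conditioned medium highest, with ratios to control of 1.20-fold lower, 1.25-fold higher and 1.33-fold higher. The log2 ratio of live over irradiated coculture was -0.58 and that of live coculture over conditioned medium -0.68, sizes of 2.91 and 3.07 SD of the probe set spread but under 2-fold. Probe set 1425451_s_at, annotated to both Chil4 and Chil3, had signals of 672.2, 890.1, 1207 and 1344 in the order control, live coculture, irradiated coculture and conditioned medium, and the share of either gene in it cannot be told apart. The probe set of Chil4 alone lay between 21.5 and 41.6, under the floor. Among 15 measured neutrophil and precursor genes, 8 were lower with live 1D8 cells, 7 with irradiated cells and 5 with conditioned medium, with none higher. A floor set at the 75th percentile left 4 lower with live cells. Their summed signal was 9735 in the control, 4538, 5587 and 9314 on the treated arrays in the same order, and Camp and Cxcr2 were at or under the floor throughout. Mmp8 made up most of the sum, with 5677 of 9735 in the control and 6902 of 9314 in conditioned medium. The part of neutrophil precursors in the Chil3 signal was not tested.

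Retnla encodes the secreted resistin-like protein RELMα or FIZZ1, one of the strongest targets of STAT6. It read 24.1 on the control array, 43.2 with live and 42.7 with irradiated 1D8 cells, and 19.3 in conditioned medium. All 4 were under the floor, so no ratio is given, although both cocultures came within a few units of it. The floor decides this: with one at 12.9, the 25th percentile, the log2 ratio of Retnla over conditioned medium was 1.16 in the live and 1.15 in the irradiated coculture, and over the control 0.84 and 0.83. Among 13 measured relatives of Chil3, Retnla and the transglutaminases, 3 exceeded the floor on some array and none was 2-fold apart from the control. These were Retn, Tgm1 and Tgm3, with signals up to 107.3, 74.2 and 92.4.

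The pathway upstream of the markers was then examined, with signals given in the order control, live coculture, irradiated coculture and conditioned medium. Il4, Il13, Il13ra1, Stat6 and Pparg are named for their roles, after their values were seen. Of 30 measured genes of IL-4 and IL-13 signalling, including Il4ra, 2 were higher and 1 lower in the live coculture, 5 higher and 1 lower in the irradiated coculture, and none was 2-fold apart in conditioned medium. The ligand genes were dim. Il4 had signals of 30.0, 32.7, 46.7 and 35.4, and Il13 had 4.7, 8.4, 8.8 and 17.0. Il13ra1, which pairs with the IL-4 receptor chain in myeloid cells, had 182.4, 360.9, 403.0 and 264.2 and was 2.21-fold higher in the irradiated coculture, where its 4 other probe sets had log2 ratios from 0.52 to 1.80. Stat6, the transcription factor of the pathway, had 1287, 1080, 1061 and 882.8.

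Further down the same pathway, regulators differed in both directions. Cish, a feedback inhibitor induced by STAT5, was 2.84-fold higher in the irradiated coculture and 1.97-fold higher, just under the threshold, in the live coculture. Myc was 5.28-fold and 4.31-fold higher in the live and irradiated cocultures, and Kdm6b, a histone H3 lysine demethylase, 2.92-fold and 2.78-fold; the 2 other probe sets of Kdm6b above the floor ranged from 0.00 to 1.34 on the log2 scale in the live coculture. Ppargc1b, a coactivator that drives oxidative metabolism under IL-4, read 345.2 for the control and 128.9 and 121.3 for the cocultures, 2.68-fold and 2.85-fold lower. Pparg, the nuclear receptor, read 85.1 for the control and 12.1, 7.7 and 4.3 on the treated arrays, under the floor. After quantile normalization or median centring the number of lower genes in this list was 2 in each coculture and 1 in conditioned medium.

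Of 26 other genes that IL-4 induces in macrophages, 6 were higher and 2 lower in the live coculture, 7 higher and 2 lower in the irradiated coculture, and 2 higher and 4 lower in conditioned medium. Their median log2 ratios were 0.00, 0.00 and -0.02. Arg1, the arginine-hydrolysing enzyme, had the highest ratios, 19.0-fold, 20.7-fold and 13.7-fold over the control. Ccl24, an eotaxin that attracts eosinophils, read 21.4 for the control, 220.1 and 302.0 for the cocultures (at least 4.97-fold and 6.82-fold higher) and 36.1 for conditioned medium. Rnase2a, an eosinophil-type ribonuclease, was 4.68-fold, 2.88-fold and 4.19-fold higher on the live, irradiated and conditioned medium arrays, calls that a floor at the 75th percentile ended. Mmp9, a gelatinase, was at least 6.33-fold and 6.51-fold higher in the cocultures. Cdh1, the epithelial cadherin, was 4.91-fold and 5.82-fold higher there and is also 1 of the epithelial genes described above.

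The chemokine genes Ccl22 and Ccl17, unlike Ccl24, had their highest signal in the control. Ccl22 was 6.18-fold, 4.71-fold and 3.98-fold lower on the live, irradiated and conditioned medium arrays. Ccl17 was 2.94-fold lower with conditioned medium, at 250.9 against 736.6, and its ratios in the cocultures, 1.87-fold and 1.92-fold lower, did not reach 2-fold. Both encode ligands of CCR4 and are made by mature dendritic cells as well as by IL-4-treated macrophages. Under a floor set at the 75th percentile, this list had 2 higher genes with live cells, 4 with irradiated cells and 1 with conditioned medium.

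Genes of classical activation, the state that interferon gamma and bacterial products induce, were higher in part on the same arrays. Of 24 measured, 9 were higher and 1 lower in the live coculture, 8 higher and 1 lower in the irradiated coculture, and 5 higher and none lower in conditioned medium. Their median log2 ratios were 0.26, 0.29 and 0.28, beside 0.31, 0.50 and 0.32 for the alternative markers. Il1b, the interleukin 1 beta gene, was 10.7-fold, 12.7-fold and 4.73-fold higher, and Ptgs2, the inducible cyclooxygenase, 12.8-fold, 12.6-fold and 3.71-fold. Il6 was at least 8.25-fold, 8.33-fold and 2.61-fold higher. Ccl2 was 8.08-fold and 7.23-fold higher in the live and irradiated cocultures and 1.12-fold higher in conditioned medium. Fpr2, a formyl peptide receptor, was 2.88-fold, 3.84-fold and 3.45-fold higher on the 3 treated arrays. Il12b, a subunit of interleukin 12, was at least 2.25-fold lower in both cocultures. The interferon-induced genes Irf1 and Gbp2 had ratios of 1.80-fold and 1.64-fold lower in the live coculture, and Cxcl9 and Cxcl11 were under the floor on all arrays; these 5 genes were picked after their values were seen. The lists were not tested against each other.

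**Figure D4:**
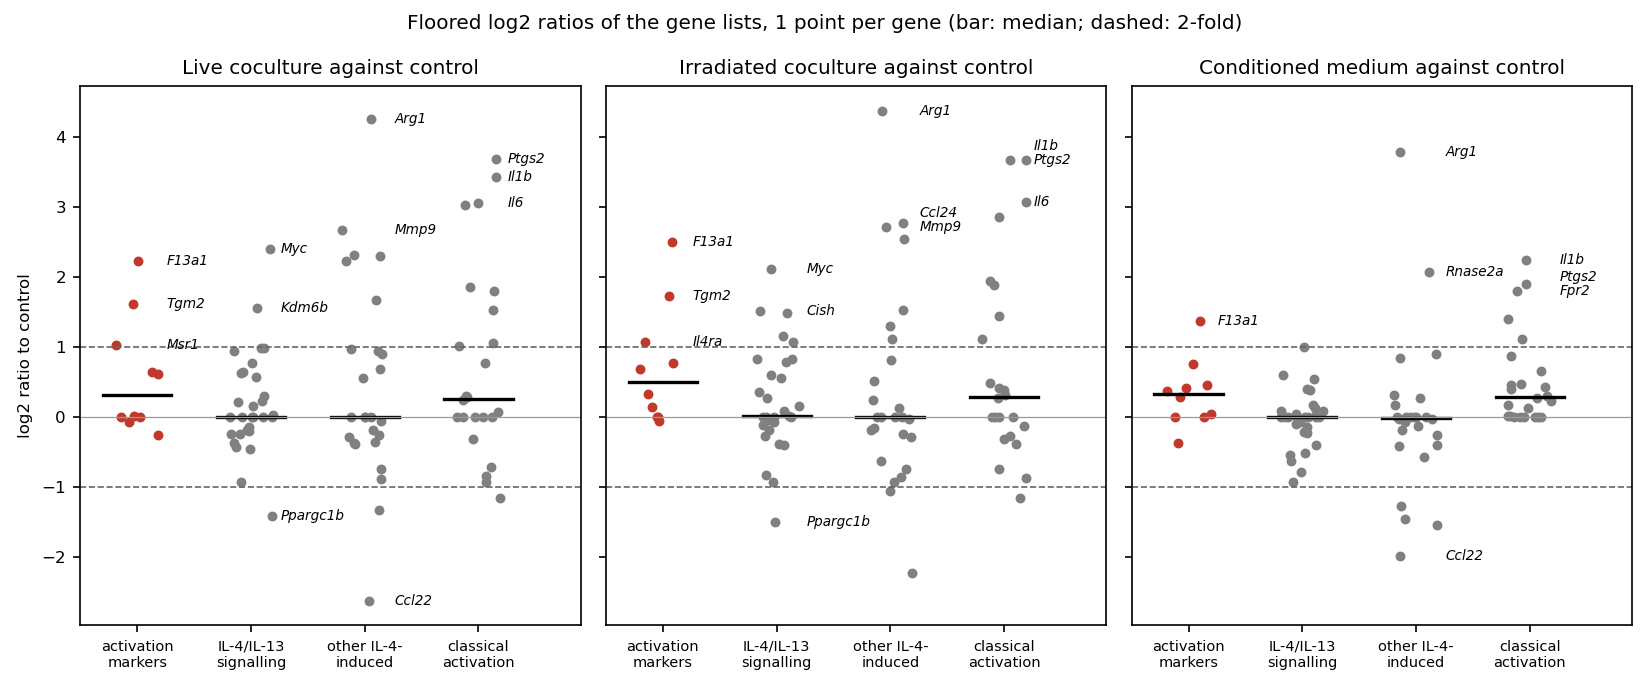
Floored log2 ratio to control of the 10 alternative activation markers (red) and of 3 further lists (grey), 1 point per gene, with the median as a bar and the 2-fold thresholds dashed. Each list holds genes on both sides of 0, except that no classical activation gene lies below 0 in conditioned medium, and Arg1, Il1b and Ptgs2 exceed the highest alternative marker, F13a1, in every panel.

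The cell type markers bear on which cells carried these genes. In bulk RNA, fewer cells of a type and less RNA per cell cannot be told apart. Of 16 measured macrophage genes 15 exceeded the floor on some array, Timd4 being the exception, and their summed signal was 0.907, 1.01 and 0.962 times the control in the live coculture, irradiated coculture and conditioned medium. At 2-fold, 2 were higher in each coculture, 1 in conditioned medium and none lower, with median log2 ratios of -0.26, -0.15 and 0.02. Cd14 was 2.49-fold and 3.46-fold higher in the live and irradiated cocultures, and Tlr4 2.25-fold and 2.33-fold. Adgre1, the F4/80 antigen, had signals of 2444, 1920, 2122 and 2941, and Itgax, the CD11c integrin of dendritic cells, had 2534, 1921, 1388 and 2394, in the order control, live coculture, irradiated coculture and conditioned medium. Adgre1 and Itgax thus exceeded the floor on every array. Of the other dendritic cell genes, Zbtb46 read 56.1, 63.1, 58.5 and 56.5 in that order, and Flt3 45.5, 58.7, 46.7 and 73.2. Both lay near the floor, whereas Cd74 read 8171, 6054, 6864 and 7510. Whether the Itgax signal came from dendritic cells was not tested. The summed signal of 19 dendritic cell genes was 0.598, 0.626 and 0.863 times the control. In the same order 1 was higher and 6 lower, 2 higher and 5 lower, and 1 higher and 3 lower. The 6 lower genes in the live coculture were Ccl22 (6.18-fold), Ccr7 (4.53-fold), H2-Eb1 (3.15-fold), Relb (2.53-fold), Kmo (at least 2.35-fold) and H2-Ab1 (2.03-fold). Cd80, on which the samples were sorted, was 4.42-fold, 3.81-fold and 2.35-fold higher in the live coculture, irradiated coculture and conditioned medium. Its 2 other probe sets above the floor had log2 ratios from 0.52 to 2.51, 0.38 to 1.95 and 0.00 to 0.46. Cd86 was 2.28-fold higher in the irradiated coculture, where its other probe set had a log2 ratio of -0.20. The summed signal of 7 measured monocyte genes was 1.47, 1.77 and 1.68 times the control, on the arrays where F13a1 was higher, but the genes differed in direction. With live 1D8 cells 2 were higher and 2 lower, with irradiated cells 3 higher and 1 lower, and with conditioned medium 2 higher and none lower, with median log2 ratios of 0.00, 0.00 and 0.37. Fn1, the fibronectin gene, made up most of the sum (7112 of 11661 in the live coculture). Itgam, the CD11b integrin, was 2.74-fold, 3.54-fold and 2.64-fold higher. Vcan was 2.26-fold and 3.45-fold higher in the cocultures. Ccr2 was 2.29-fold higher in conditioned medium, where its 3 other probe sets above the floor had log2 ratios from -0.33 to 3.56. By contrast, Plac8 was 6.04-fold and 4.15-fold lower in the cocultures and Ms4a6c 2.17-fold lower in the live coculture. The other probe set of Ms4a6c had a log2 ratio of -0.05 there. The part of monocytes in the F13a1 signal was not tested. Of 6 measured eosinophil genes 5 were at or under the floor on all arrays, as Retnla was, and the summed signal of 11 mast cell and basophil genes was 0.246 and 0.315 times the control for the live and irradiated cocultures and 0.650 for conditioned medium. Lymphocyte genes, 10 in all, summed to 0.652, 0.772 and 0.908 times the control.

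**Figure D5:**
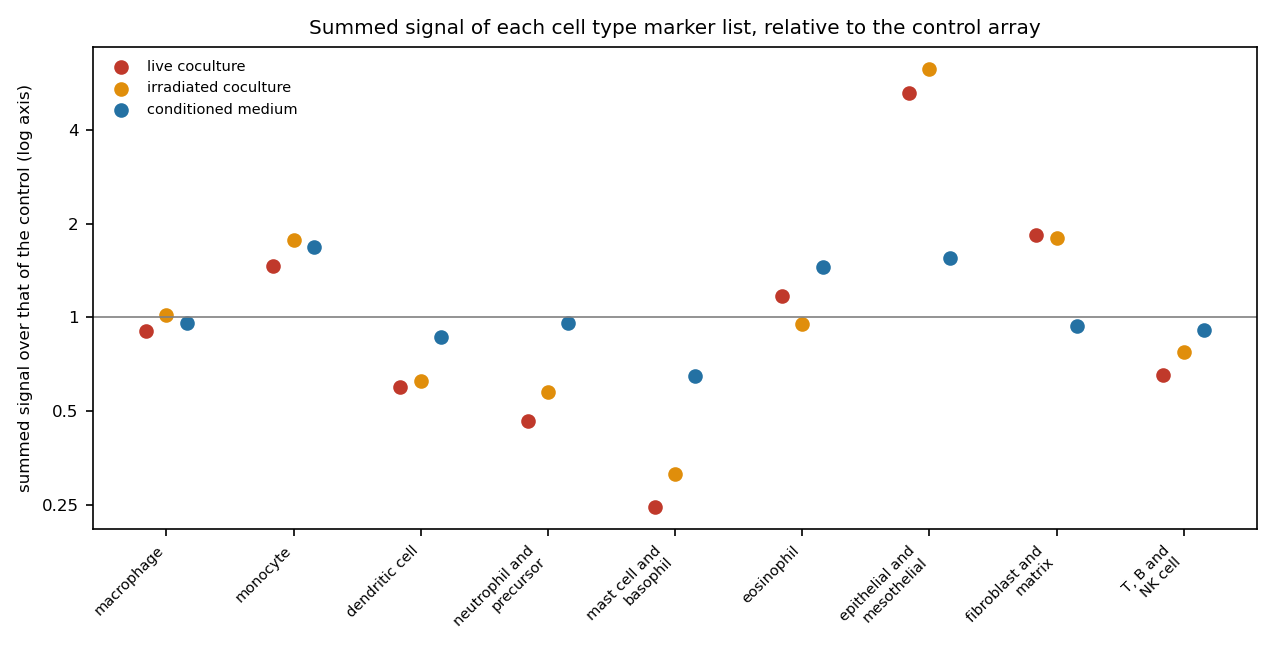
Summed signal of 9 cell type marker lists on each treated array, as a multiple of the control array (log axis). The epithelial and mesothelial list is 5.24 and 6.28 times the control in the cocultures, the monocyte list is above 1 on all 3 treated arrays, and the macrophage list stays between 0.907 and 1.01.

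For each marker above the floor on all 4 arrays and 2-fold apart from the control, the 2 genes with the most similar pattern were found by the Euclidean distance over the 3 log2 ratios to control, among 9526 of the genes above the floor on all 4 arrays, clone and model names left out. Nearest to F13a1 were Adssl1 (distance 0.15), with signals of 384.0, 1738, 1967 and 951.6 in the order control, live coculture, irradiated coculture and conditioned medium, and Ndrg1 (0.38). One gene lay within 0.25 of F13a1. None lay within 0.25 of Tgm2, whose nearest genes were Rgcc (0.29) and Crem (0.35). Il4ra had 27 genes within 0.25, led by Serpini1 (0.03) and Homer1 (0.07), and Msr1 had 55, led by Rhbdf1 (0.05) and Atf7 (0.11). The distance rests on 4 arrays that share 1 control, and says nothing on how the genes are controlled.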

How the data were processed

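Each sample was hybridised to 1 Affymetrix mouse array. The authors deposited 1 linear signal intensity per probe set, made with GCOS 1.4 and MAS5, per the submitters' processing notes. The scaling target is not given in the sources used here. The means trimmed by 2% at each end were 149.4 to 149.5 on the 4 arrays, so no normalization was added.

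Of 45101 probe sets, 64 controls were left out, 34945 had 1 gene, 932 several and 9160 none in the annotation table used. By Entrez identifier 34741 matched RefSeq, with 0 symbols replaced. Signals were floored at the 50th percentile of all signals, and log2 ratios taken at the probe set of each gene with the highest mean log2 signal. A ratio whose dimmer signal did not exceed the floor is a bound, written "at least". The probe set spread is 1.4826 times the median absolute deviation of the difference in log2 ratio between the 2 brightest probe sets of a gene, over the square root of 2, from at least 4263 genes against the control. Precision is limited by having 1 array per group.

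The text names every marker, up to 4 genes per list and comparison with the largest ratios among those 2-fold apart, 2 nearest-pattern genes per marker, relatives of the markers, and cell type markers; exceptions are stated. The markers and lists were chosen with earlier results of these data known. Alternatives were floors at the 25th and 75th percentiles, quantile normalization, median centring, the mean over probe sets and a 3-fold threshold. The steps were tested on simulated data. Python 3.11.15, numpy 2.4.6, pandas 2.3.3 and matplotlib 3.10.9 were used.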

Additional observations from a re-analysis of the deposited data

Results flagged for a closer look

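One marker differed in sign between the kinds of treatment. Tgm2 was at least 2-fold higher than the control in both cocultures, while its log2 ratio to control in conditioned medium was -0.37 at the brightest probe set. It was picked out because the 2 coculture arrays and the conditioned medium array lie on opposite sides of the control. The difference was not tested, since each condition has 1 array. The negative value is 1.04 SD of the probe set spread, and probe sets 1417500_a_at and 1426004_a_at had values of 0.14 and 0.26, so the sign in conditioned medium depends on the probe set.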

How the results depend on the processing

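Of 72 counts of markers called under the alternatives, 69 were within 1.5 times the main count. Among them are those after quantile normalization, after median centring, with the floor at the 75th percentile and as the mean over probe sets. All counts of lower markers, and all counts between the 2 cocultures, were 0 in the main analysis and under every alternative. A change from 3 to 2 lies within the limit of 1.5 times. After median centring 2 markers were higher than the control in each coculture, as Msr1 lost its call in the live and Il4ra in the irradiated coculture. With the 3-fold threshold the number higher in conditioned medium than in control was 0, in place of 1, and in irradiated coculture over conditioned medium it was 1, in place of 3. With the floor at the 25th percentile the number higher in live coculture over conditioned medium was 2, in place of 1, the gene added being Retnla. Of 300 log2 ratios of markers under the alternatives 16 moved by more than the probe set spread and none of the called ones changed sign; the 16 belong to Retnla and Cd163 under the lower floor and to Tgm2 and Il4ra as the mean over probe sets. Of 375 ratios of other named genes 31 moved and none of the called ones changed sign. Of 576 counts of the other gene lists 119 moved by more than 1.5 times. The alternatives for these lists and genes were chosen after seeing the data. At the main floor 2 of 10 markers gave no ratio. No paired analysis was possible because each group has 1 sample.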

Other observations

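Genes that glucocorticoids or IL-10 regulate, signals that also induce Cd163 and Mrc1, were higher in part in the cocultures. Of 17 measured, 4 were at least 2-fold higher and none lower in the live coculture, 4 higher and none lower in the irradiated coculture, and none was 2-fold apart in conditioned medium, with median log2 ratios of 0.35, 0.32 and 0.06. Dusp1, which encodes an enzyme that switches off MAP kinases, was 5.05-fold and 5.42-fold higher in the live and irradiated cocultures. Il1r2, the decoy receptor of interleukin 1, read 311.2 for the control and 927.8 and 1238 for the cocultures, 2.98-fold and 3.98-fold higher. Fkbp5, a cochaperone of the glucocorticoid receptor, was 2.20-fold and 2.19-fold higher. Socs3 was 2.39-fold and 3.72-fold higher in the live and irradiated cocultures. Tsc22d3, which glucocorticoids also induce, had ratios of 1.99-fold and 1.61-fold lower in the same arrays, under 2-fold, and was picked after its values were seen. Its 3 other probe sets above the floor differed in sign, with log2 ratios from -0.84 to 0.54 in the live and from -0.40 to 0.45 in the irradiated coculture. After quantile normalization or median centring 1 gene of the list was lower in the live coculture.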
